A study of Homo sapiens with 10 samples.

Results

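Cohesin subunits, the cohesin loader, the PDS5 proteins and the boundary protein CTCF were examined after depletion of lamin B1 in the human colorectal cancer line DLD-1. The 10 genes named were SMC3, SMC1A, RAD21, STAG1, STAG2, NIPBL, PDS5A, PDS5B, CTCF and ESCO2. A gene was included where a probe of the deposited value table carries its symbol alone, and the probe with the highest mean was to stand for the gene. This gave 8 genes of the 14232 with such a probe, 1 probe each, and the 8 passed the filter on low values, as did 11198 genes in all. The only probe for STAG1 is shared with PCCB by annotation and is reported apart, as STAG1;PCCB. No probe names ESCO2, which was not analysed here.

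Cohesin is a ring of SMC1A, SMC3 and the kleisin RAD21, to which a STAG protein binds. NIPBL loads the ring on chromatin and drives loop extrusion, PDS5A and PDS5B regulate its release and its acetylation, and loops stop where CTCF is bound. The same ring holds sister chromatids together from DNA replication to anaphase, so its subunits serve both genome folding and cell division. The nuclear lamina, of which lamin B1 is a filament protein, anchors chromatin at the nuclear edge.

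Log2 RNA levels came from 10 exon arrays summarised by gene. Cells were transfected with a short hairpin RNA (shRNA) vector against LMNB1, the gene of lamin B1, and grown from single cells. Vector V2LHS_62673 gave clones 8, 9 and 12 with 1 array each, and vector V2LHS_62675 gave a single clone, number 2 by its description, with 3 arrays that were averaged. The controls comprised 3 empty vector clones and 1 array of wild type cells, which were not transfected and, unlike every other culture, were grown without puromycin. Each knockdown unit is thus 1 clone and the second vector rests on 1 clone, so vector and clone cannot be told apart there. The titles call the arrays of clone 2 biological replicates and the descriptions number them as replicates from that clone. Neither says whether they came from separate cultures, so their spread may be technical. The titles of the empty vector arrays also say biological replicate and give no clone number. Those 3 arrays are taken as separate clones here.

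Clone 8 differed from the other 9 arrays across the whole array. It correlated with them at 0.915 to 0.926 over all probes, against 0.986 to 0.994 among the others, its median was 7.62 against 7.34 to 7.41, and its interquartile range was 2.35 against 2.82 to 3.01. The differences of the 8 genes from all controls are therefore given with and without it, as are those of V2LHS_62673 from the empty vector clones for SMC3, SMC1A, RAD21 and PDS5B. The probe shared by LMNB1 and PCIF1 read 7.45 to 7.79 in the 4 knockdown clones and 8.84 to 9.52 in the 4 controls, a 2.75-fold lower level (log2 difference -1.46, SE 0.17, limma adjusted p = 0.0602, range over its alternatives 0.00115 to 0.473). Some of those alternatives had the empty vector clones as the only controls. Epithelial markers were present throughout (EPCAM 11.26 to 11.79, CDX2 8.80 to 9.26 on the 10 arrays), with KRT20 at 4.78 to 5.44 under the filter level of 5.95. Of the 10 tested epithelial markers VIL1 passed in 1 comparison, 0.68 higher in clone 2 than in clones 9 and 12 (limma adjusted p = 0.0390), where 2.15% of all features passed. Without clone 8, all 10 epithelial markers lay below the empty vector clones in clones 9 and 12, where 49.9% of all features lay above. The median of the markers there was -0.14, against -0.00051 over all features, and none passed. With clone 8 kept, 6 of the 10 lay below, and in clone 2 4 of the 10 did. Of the 4 measured leukocyte markers PTPRC (3.82 to 4.28) and CD3E lay under the filter level and CD14 and CD53 above it. Of the 8 fibroblast and endothelial markers DCN (3.94 to 4.63) and PECAM1 lay under it on every array. COL1A1 (7.34 to 8.27), COL1A2, COL3A1, PDGFRB and VWF lay above it on every array, and CDH5 ran from 5.95 to 6.61. Whether these values lie above background was not tested. The mean of those 8 markers was 0.66 above the empty vector mean in clone 8, and its differences from that mean ran from -0.10 to 0.11 in the other units.

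Of the 8 genes, SMC3 showed the widest spread between groups. It was low in the 3 empty vector clones and higher in wild type cells and in each knockdown clone. The difference from the empty vector clones passed the threshold without clone 8 but not with all clones, and that from wild type cells passed in neither. SMC1A and CTCF had the same order at smaller sizes once clone 8 was left out. NIPBL and PDS5A were lowest in clone 8, at -1.39 and -1.10 from the empty vector mean, and lay nearer that mean in every other unit. None of the 8 genes passed the threshold in the comparison of knockdown clones with all controls. None had all knockdown clones above every control, where 1.6% of features did, or below every control, where 1.54% did.

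The promoter sequences of SMC3, SMC1A and CTCF are shown because wild type cells and the knockdown clones other than clone 8 lay above every empty vector clone in these 3 of the 8 genes. They are from RefSeq, build GRCh38.p14, and span the 250 bases before the annotated start, 5' to 3' on the strand of the gene. SMC3 is chr10:110567445-110567694 on the plus strand, SMC1A is chrX:53422729-53422978 on the minus strand, taken at the more upstream of its 2 listed starts, and CTCF is chr16:67562276-67562525 on the plus strand. Capitals mark the GC box (GGGCGG on either strand), the motif bound by SP1 family factors, and the core of the cell cycle homology region (TTTGAA on either strand), a motif known from promoters of genes of G2 phase and mitosis.
SMC3: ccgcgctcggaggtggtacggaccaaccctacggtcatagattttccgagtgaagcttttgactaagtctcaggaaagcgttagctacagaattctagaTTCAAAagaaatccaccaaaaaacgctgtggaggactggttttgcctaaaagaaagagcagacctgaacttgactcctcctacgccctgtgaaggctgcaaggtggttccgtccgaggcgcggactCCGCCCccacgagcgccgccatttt
SMC1A: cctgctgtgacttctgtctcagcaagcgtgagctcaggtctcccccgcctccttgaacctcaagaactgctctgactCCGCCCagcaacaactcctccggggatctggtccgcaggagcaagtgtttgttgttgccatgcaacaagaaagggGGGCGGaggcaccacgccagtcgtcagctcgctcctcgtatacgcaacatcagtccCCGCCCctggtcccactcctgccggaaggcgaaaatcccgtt
CTCF: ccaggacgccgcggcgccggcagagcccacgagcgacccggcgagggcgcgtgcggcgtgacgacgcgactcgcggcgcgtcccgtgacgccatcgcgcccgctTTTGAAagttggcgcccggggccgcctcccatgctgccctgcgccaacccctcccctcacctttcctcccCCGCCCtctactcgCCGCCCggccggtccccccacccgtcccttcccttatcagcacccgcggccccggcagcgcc

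The promoter table held 8 of the 10 named genes, all but RAD21 and ESCO2, in 11 windows. They include STAG1, whose probe is shared, and so are not the same 8 genes as those analysed by probe. A GC box was found in a window of each of these 8 promoter genes and in 42.6% of 35116 promoter windows of the table. TTTGAA was found in SMC3 and CTCF, 2 of these 8, against 13.3% of all windows. Its position from the start was -151 in SMC3 and -146 in CTCF. CCAAT, read on both strands, was found in 4 of these 8, none of them SMC3, SMC1A or CTCF, against 32.0% of all windows. Some genes have more than 1 window, so the shares of genes and of windows are not on the same base. The 3 motifs share no overlap of letters with each other in the sequences shown, and a match is a run of letters, not a measured binding site.

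SMC3, the SMC subunit whose head is acetylated when cohesion is established, read 7.40, 7.43 and 7.23 in empty vector clones 1, 2 and 3 and 8.12 in wild type cells. It read 7.72, 8.00 and 8.20 in clones 8, 9 and 12 of V2LHS_62673, and 8.29, 7.83 and 8.31 on the 3 arrays of clone 2. Every knockdown array and wild type cells lay above the highest empty vector clone, and the knockdown clones lay on both sides of wild type cells. In these values the group that stands apart is the empty vector one, not the knockdown one. Across all features tested, 2.4% had wild type cells and all knockdown clones above every empty vector clone, and SMC3 was the 1 of the 8 genes that did. Without clone 8, 6.36% of features and 3 of the 8 genes (SMC3, SMC1A and CTCF) had this order.

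Against all 4 controls, the knockdown clones had 8.02 ± 0.21 (SD, n = 4) for SMC3 and the controls 7.55 ± 0.39 (SD, n = 4), a log2 difference of 0.47 (SE 0.20, 95% interval 0.02 to 0.92). The fit called 0% of the 11200 features and none of the 8 genes (limma, adjusted p for SMC3 = 0.761). Over the alternatives the limma adjusted p ranged from 0.0145 to 1.00. Some of these alternatives had the empty vector clones as the only controls. The low end, 0.0145, equals the value for V2LHS_62673 against the empty vector clones without clone 8. It is therefore not a pass against all 4 controls. At an unadjusted p under 0.05 the fit with all 4 controls held 257 features, 2.29%, of which SMC3 was the 1 member. Without clone 8 the SMC3 difference was 0.57 (SE 0.19, limma adjusted p = 0.709), with 0% called and 725 features, 6.47%, at an unadjusted p under 0.05. Wild type cells sat in the control group at the level of the knockdown clones.

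Against the empty vector clones alone, which averaged 7.35 ± 0.11 (SD, n = 3) for SMC3, the difference was larger. With all clones, the V2LHS_62673 clones (7.97 ± 0.24, SD, n = 3) were 0.62 higher (SE 0.17, 95% interval 0.22 to 1.02, limma adjusted p = 0.741), clone 2 was 0.79 higher (SE 0.24, 95% interval 0.22 to 1.36), and wild type cells were 0.76 higher (SE 0.24, 95% interval 0.19 to 1.33). The last pair of adjusted p-values were both 1.00. No feature passed in any of these 3 comparisons, 0% of 11200, and 358, 295 and 290 features (3.2%, 2.63% and 2.59%) had an unadjusted p under 0.05.

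Leaving out clone 8 narrowed the spread, and SMC3 then passed in all 3 comparisons. In clones 9 and 12 it was 1.68-fold higher than in the empty vector clones (log2 difference 0.75, SE 0.11, 95% interval 0.51 to 0.98, limma adjusted p = 0.0145), where 1.03% of features passed and 0.33% passed as higher. In clone 2 it was 1.73-fold higher (SE 0.13 on the log2 scale, limma adjusted p = 0.0134), where 3.74% passed and 1.55% as higher. In wild type cells it was 1.70-fold higher (SE 0.13, limma adjusted p = 0.0208), where 3.6% passed and 1.7% as higher. The 3 comparisons share the empty vector clones, so they are not independent of each other.

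These calls rest on few clones. Leaving out empty vector clone 2 as well raised the limma adjusted p for SMC3 to 0.0866 for V2LHS_62673, 0.0512 for clone 2 and 0.0694 for wild type cells, and leaving out empty vector clone 3 instead raised it to 0.147, 0.0640 and 0.0806. Without empty vector clone 1 the values were 0.00738, 0.0122 and 0.0151. With clone 8 and wild type cells both left out, the 3 remaining knockdown clones were 0.76 above the empty vector clones (SE 0.09, 95% interval 0.55 to 0.97, limma adjusted p = 0.0234, 0.17% of features called and 0.0446% as higher). That call too was lost when empty vector clone 2 (0.236), empty vector clone 3 (0.195) or knockdown clone 12 (0.0602) was left out.

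Between the knockdown clones and wild type cells the difference in SMC3 was smaller than its error. It was -0.10 with all clones (95% interval -0.65 to 0.45) and -0.0029 without clone 8 (95% interval -0.30 to 0.29), which leaves room for a change of that size in either direction. Wild type cells are 1 array, grown without puromycin, so their distance from the empty vector clones cannot be told apart from transfection, selection or cloning. Between the vectors it was also smaller than its error, as clone 2 was 0.17 above the V2LHS_62673 clones with all clones (95% interval -0.40 to 0.74) and 0.04 above them without clone 8 (95% interval -0.27 to 0.35).

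**Figure D1:**
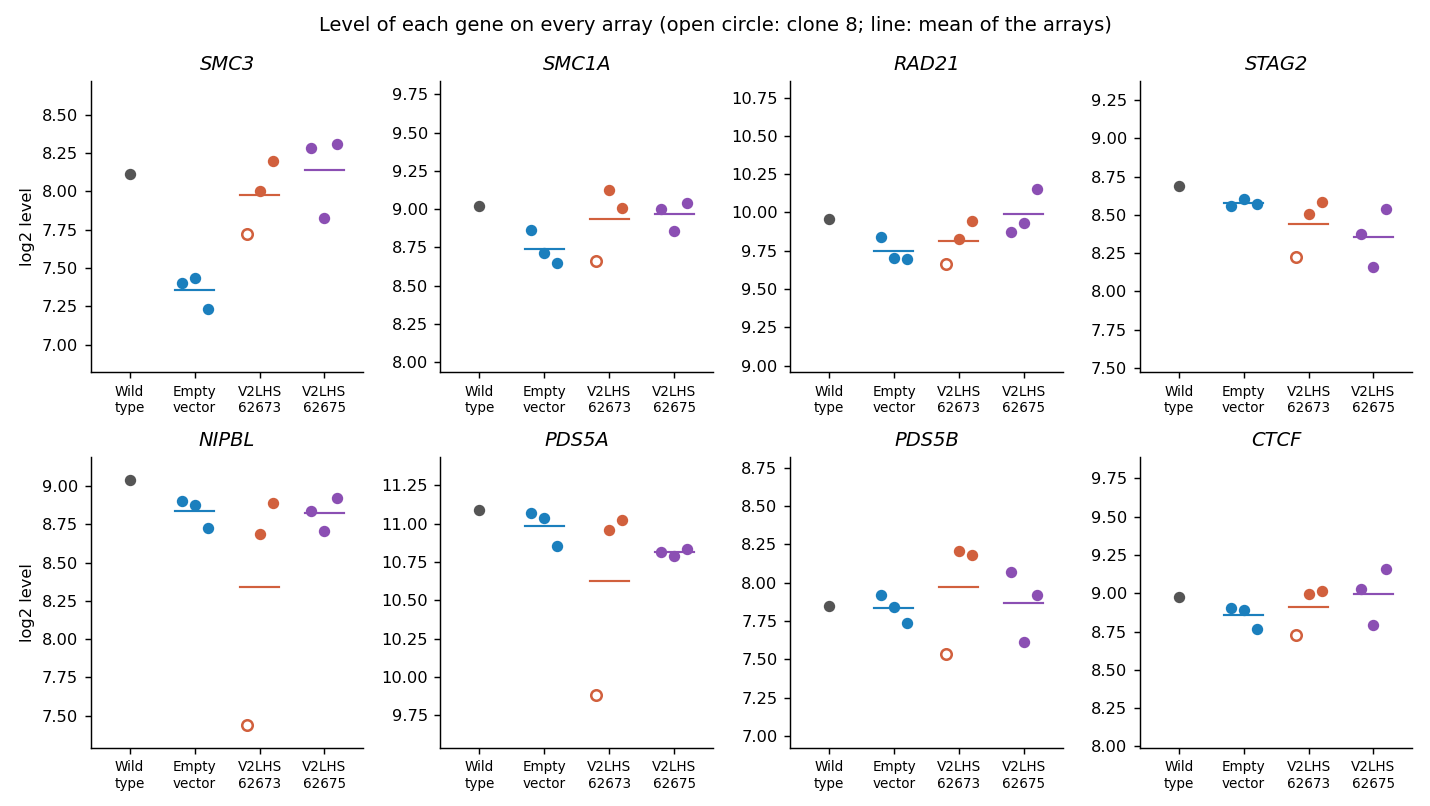
Log2 level of each of the 8 genes (vertical axis, the same span in every panel) on each of the 10 arrays, grouped as wild type, empty vector, V2LHS_62673 and V2LHS_62675; points are arrays, lines are means of the arrays, and the open circle is clone 8. SMC3 sits at 7.23 to 7.43 in the empty vector clones and at 7.72 or above on every other array, and clone 8 is the lowest point for NIPBL (7.44) and PDS5A (9.88).

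SMC1A, the partner of SMC3 in the ring, followed the same order at a smaller size. It read 8.86, 8.72 and 8.65 in the empty vector clones, 9.02 in wild type cells, 8.66, 9.13 and 9.01 in clones 8, 9 and 12, and 9.00, 8.86 and 9.04 on the arrays of clone 2. Clone 8 lay among the empty vector clones, and array 2 of clone 2 lay level with the highest of them. With all clones, the V2LHS_62673 clones were 0.19 above the empty vector clones (SE 0.17, 95% interval -0.21 to 0.60, limma adjusted p = 0.741). Without clone 8, clones 9 and 12 were 0.33 above the empty vector clones (SE 0.10, 95% interval 0.10 to 0.55, limma adjusted p = 0.150), clone 2 was 0.23 above them (limma adjusted p = 0.415) and wild type cells 0.28 (limma adjusted p = 0.262). None passed the threshold. Against all controls the difference was 0.13 with all clones (SE 0.14) and 0.22 without clone 8 (SE 0.10).

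RAD21, the kleisin that closes the ring and is cleaved by separase at anaphase, varied little. It read 9.84, 9.70 and 9.70 in the empty vector clones, 9.96 in wild type cells, 9.66, 9.83 and 9.94 in clones 8, 9 and 12, and 9.87, 9.93 and 10.16 on the arrays of clone 2. Clone 2 and wild type cells lay above the empty vector clones, while clones 8 and 9 did not. With all clones, the difference of V2LHS_62673 from the empty vector clones was 0.07 (95% interval -0.28 to 0.41). Without clone 8 the differences from the empty vector clones were 0.14 in V2LHS_62673 (95% interval -0.07 to 0.35), 0.24 in clone 2 (95% interval -0.03 to 0.51) and 0.21 in wild type cells (95% interval -0.06 to 0.48). None passed. Against all controls with all clones the difference was 0.06 (SE 0.13), which became -0.011 when each array was centred on its median, and without clone 8 it was 0.12 (SE 0.09).

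STAG2, the STAG subunit encoded on the X chromosome, was the core gene with values below the controls. It read 8.56, 8.60 and 8.57 in the empty vector clones, 8.69 in wild type cells, 8.23, 8.50 and 8.59 in clones 8, 9 and 12, and 8.38, 8.16 and 8.54 on the arrays of clone 2. Clones 8, 9 and 2 lay below every empty vector clone and clone 12 lay within their range, which spanned less for STAG2 than for the other 7 genes. The difference from all controls was -0.19 with all clones (SE 0.12, 95% interval -0.46 to 0.09, limma adjusted p = 0.761) and -0.12 without clone 8 (SE 0.08, 95% interval -0.30 to 0.06, limma adjusted p = 0.814). The probe shared by STAG1, the other mitotic STAG subunit, and PCCB, a mitochondrial carboxylase subunit, read 9.14 in wild type cells, 8.44 to 8.80 in the empty vector clones, 7.94 in clone 8, 8.81 in clone 12 and 9.04 in clone 9. On the arrays of clone 2 it read 8.70 to 9.11, with a mean of 8.93. Like SMC3, SMC1A and CTCF, this probe thus lay above every empty vector clone in wild type cells and in clones 9, 12 and 2. In wild type cells it was 0.48 above the empty vector mean. Its difference from all controls was -0.10 with all clones (SE 0.25) and turned to 0.15 without clone 8 (SE 0.15), and the probe cannot tell the 2 genes apart.

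NIPBL, the loader, read 8.90, 8.87 and 8.72 in the empty vector clones, 9.04 in wild type cells, and 8.83, 8.71 and 8.92 on the arrays of clone 2. In the V2LHS_62673 clones it read 7.44 in clone 8, 8.69 in clone 9 and 8.89 in clone 12. The difference from the empty vector mean was -1.39 in clone 8 and -0.15 to 0.05 in the other knockdown clones. Against all controls the difference was -0.43 with all clones (SE 0.29, limma adjusted p = 0.761) and -0.09 without clone 8 (SE 0.09, 95% interval -0.30 to 0.12, limma adjusted p = 0.900). The larger value thus came from 1 array.

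PDS5A, which binds the ring beside the STAG subunit, was also lowest in clone 8. It read 11.07, 11.04 and 10.85 in the empty vector clones, 11.09 in wild type cells, 9.88, 10.96 and 11.02 in clones 8, 9 and 12, and 10.81, 10.79 and 10.84 on the arrays of clone 2. Clone 8 differed from the empty vector mean by -1.10, and the 3 arrays of clone 2 lay just below the lowest empty vector clone. Against all controls the difference was -0.34 with all clones (SE 0.23, limma adjusted p = 0.761) and -0.08 without clone 8 (SE 0.09, 95% interval -0.28 to 0.12). With clone 8 left out of the fit, the difference of clone 2 from the empty vector clones was -0.17 (95% interval -0.45 to 0.11, limma adjusted p = 0.592).

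PDS5B, the paralog of PDS5A, was highest in clones 9 and 12. It read 7.92, 7.84 and 7.74 in the empty vector clones, 7.85 in wild type cells, 7.54, 8.21 and 8.18 in clones 8, 9 and 12, and 8.07, 7.62 and 7.92 on the arrays of clone 2. Clones 9 and 12 lay above every control, clone 8 below every control, and the arrays of clone 2 on both sides. Against all controls the difference was 0.11 with all clones (SE 0.16) and 0.25 without clone 8 (SE 0.10, limma adjusted p = 0.750). With all clones, the V2LHS_62673 clones were 0.14 above the empty vector clones (SE 0.21, 95% interval -0.36 to 0.64, limma adjusted p = 0.764). Without clone 8 they were 0.36 above the empty vector clones (SE 0.09, 95% interval 0.15 to 0.57, limma adjusted p = 0.102) and clone 2 was 0.04 above them (95% interval -0.23 to 0.30). The difference between clone 2 and clones 9 and 12, tested itself, was -0.33 (95% interval -0.61 to -0.04, limma unadjusted p = 0.0276, adjusted p = 0.240). In that comparison 15.2% of features had an unadjusted p under 0.05 and 2.15% passed the threshold, PDS5B not among them. With all clones it was -0.11 (95% interval -0.81 to 0.60), where 0% passed and 249 features, 2.22%, had an unadjusted p under 0.05.

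CTCF, the zinc finger protein at which extruded loops stop, moved within a narrow range. It read 8.91, 8.89 and 8.77 in the empty vector clones, 8.98 in wild type cells, 8.73, 9.00 and 9.02 in clones 8, 9 and 12, and 9.03, 8.79 and 9.16 on the arrays of clone 2. Clones 9, 12 and 2 (as the mean of its arrays, 8.99) lay above all 4 controls and clone 8 lay below them. Of all features, 3.46% had the knockdown clones without clone 8 above every control, and CTCF was the 1 of the 8 genes that did. The difference from all controls was 0.05 with all clones (SE 0.12) and 0.12 without clone 8 (SE 0.07, 95% interval -0.05 to 0.28, limma adjusted p = 0.814).

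**Figure D2:**
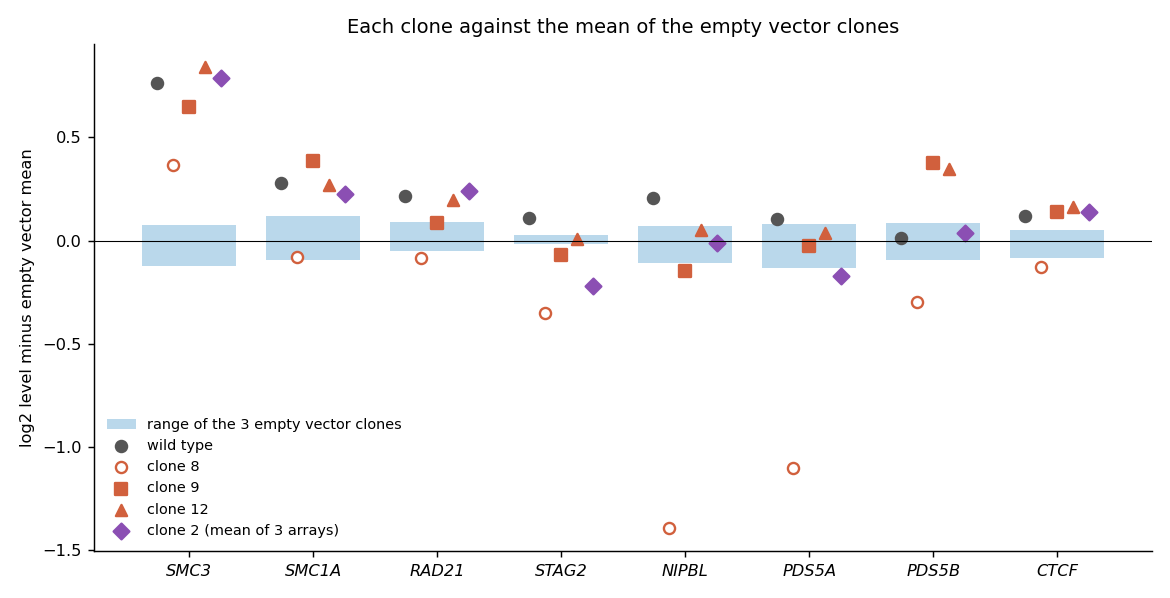
Difference in log2 level from the mean of the 3 empty vector clones (vertical axis) for each gene (horizontal axis) in wild type cells and in each knockdown clone; the shaded band is the range of the empty vector clones. For SMC3 the 5 units lie 0.37 to 0.84 above the mean, while clone 8 is at -1.39 for NIPBL and -1.10 for PDS5A.

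Clone by clone against the empty vector clones, the 8 genes did not move as a block. Clone 8 was below every empty vector clone in 6 of the 8 genes, all but SMC3 and SMC1A, where 38.1% of all features were, and above every one in SMC3, where 53.5% were. Its median difference over the 8 genes was -0.21, against 0.18 over all features. Clone 9 lay above every empty vector clone in 4 genes (SMC3, SMC1A, PDS5B and CTCF, against 27.9% of all features) and below in 2 (STAG2 and NIPBL, against 27.8%). Clone 12 lay above in 5 genes, which were those 4 and RAD21 (27.4% of all features), and below in none (31.6%). Clone 2 lay above in 4 genes (SMC3, SMC1A, RAD21 and CTCF, against 32% of all features) and below in 2 (STAG2 and PDS5A, against 25.2%).

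Wild type cells lay above every empty vector clone in 7 of the 8 genes, all but PDS5B, where 30.1% of all features did, above their mean in all 8, where 48.3% did, and below every empty vector clone in none, where 30.3% did. Their median difference from the empty vector mean was 0.16 over the 8 genes and -0.01 over all features. The empty vector clones were not alike in these genes either. Clone 3 lay below the mean of the 3 in all 8 genes, where 59.0% of all features lay above it. Clone 1 lay above the mean in 7 genes (all but STAG2), against 47.5% of all features, and clone 2 in 6, against 45.8%. The median difference of clone 3 was -0.09 over the 8 genes and 0.03 over all features.

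**Figure D3:**
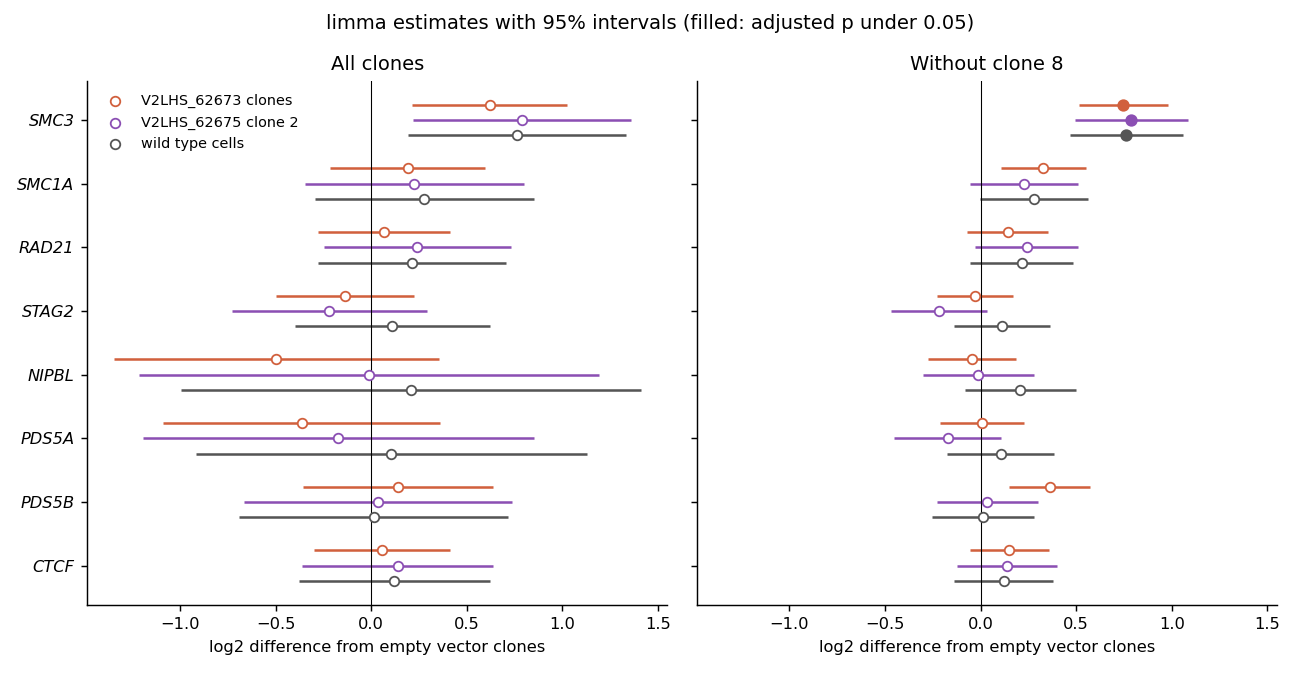
Difference in log2 level from the empty vector clones (horizontal axis) with its 95% interval from limma, for V2LHS_62673, clone 2 and wild type cells, with all clones (left) and without clone 8 (right); filled points have an adjusted p under 0.05. The 3 SMC3 points, at 0.75, 0.79 and 0.76 in the right panel, are the only filled ones.

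Likeness of pattern was measured as the root mean square difference of log2 levels, each centred on the gene's own mean, over the 8 clone-level samples. Outside the 8 genes, the patterns closest to SMC3 (own SD 0.39) were those of ZNF420, a zinc finger protein, at 0.133, STK17A, a kinase, at 0.140, POLE3, a histone-fold subunit of DNA polymerase epsilon, at 0.157, MGST1, a membrane glutathione transferase, at 0.174, and CCP110, a centriole protein, at 0.174. ZNF420 read 6.07 to 6.31 in the empty vector clones, 6.27 in clone 8 and 6.68 to 6.87 in the other 4 units. STK17A read 8.78 to 8.98 in the empty vector clones, 9.06 in clone 8 and 9.25 to 9.45 in the other 4. Clone 8 lay within the empty vector range for ZNF420, and between the empty vector clones and the rest for STK17A and SMC3. Over the 7 samples without clone 8 (SMC3 SD 0.42) the closest were MORN2 at 0.130, ZNF420 at 0.132, MGST1 at 0.134, DOK3, an adaptor protein, at 0.141 and CDK8, the Mediator kinase, at 0.146. These genes were picked from all features for their likeness, so the values describe and test nothing.

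Among the 8 genes themselves the nearest to SMC3 (SD 0.39) was SMC1A (SD 0.18), at 0.246. The measure counts size as well as order, so a gene with the order of SMC3 at a smaller size lies far from it. Genes that vary little lie near each other whatever their order, among them RAD21 (SD 0.13) and CTCF (SD 0.11). RAD21 and CTCF were nearest to each other at 0.0600, NIPBL and PDS5A to each other at 0.129, SMC1A was nearest to CTCF at 0.0888, PDS5B to SMC1A at 0.120 and STAG2 to CTCF at 0.134. Without clone 8 the partner of PDS5A became STAG2, at 0.0646 both ways, and NIPBL stayed nearest to PDS5A at 0.0828.

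**Figure D4:**
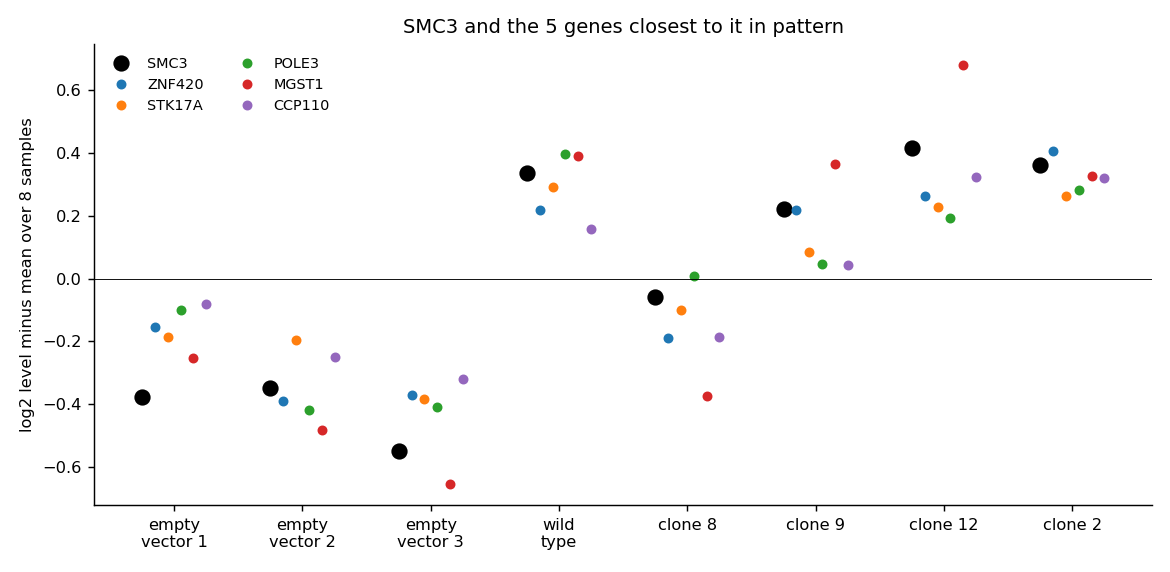
Log2 level minus the gene's mean over the 8 clone-level samples (vertical axis) for SMC3 and the 5 genes of closest pattern, in each sample (horizontal axis); clone 2 is the mean of its 3 arrays. All 6 genes lie below their mean in the 3 empty vector clones and above it in wild type cells and clones 9, 12 and 2.

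Other genes of the cohesin cycle were read from lists. None passed the threshold in any comparison with all clones, so the calls that follow are without clone 8. Over all features, 1.03% then passed in clones 9 and 12, 3.74% in clone 2 and 3.6% in wild type cells, each against the empty vector clones, 2.15% in clone 2 against clones 9 and 12, and 0% in knockdown against all controls. The 5 regulators (WAPL, MAU2, ESCO1, HDAC8 and CDCA5), which release, load, acetylate or protect cohesin, held no call in either direction, and with shares that small a count of 0 in 5 genes sets them apart from no other genes. CDCA5, sororin, which blocks release by WAPL, was 0.38 above all controls with all clones (SE 0.19) and WAPL 0.18 (SE 0.12), both with a limma adjusted p of 0.761. The other 3 regulators differed from the controls by -0.35 to -0.10 there. The list's median was -0.10 in that comparison, against 0.04 over all features. Without clone 8 the differences were smaller, 0.21 for CDCA5 (SE 0.13) and 0.11 for WAPL (SE 0.07). The list then had 3 genes above 0 and 2 below, with a median of 0.02 against 0.01 over all features.

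All 8 genes of sister separation and centromere protection lay above the empty vector mean in clone 2 and in wild type cells, where 56.5% and 48.3% of all features did. The medians were 0.38 and 0.29 against 0.02 and -0.01 over all features. In clone 2, PLK1, the mitotic kinase that helps strip cohesin from arms, rose by 0.67 (limma adjusted p = 0.0206) and PTTG1, securin, by 0.55 (limma adjusted p = 0.0456). In wild type cells PLK1 was 0.56 higher (limma adjusted p = 0.0402) and no other gene of the list passed. In clones 9 and 12 the list's median was 0.10 with no call. Clone 2 lay above the mean of clones 9 and 12 in 6 of the 8 genes, where 55.7% of all features did, and below it in 2, by -0.06 and -0.00063. The difference passed in PTTG1 by 0.73 (limma adjusted p = 0.0302) and in AURKB, the chromosomal passenger kinase, by 0.59 (limma adjusted p = 0.0402).

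Of the 8 genes that couple cohesion to the replication fork, 6 were tested. DSCC1, a subunit of the clamp loader that supports cohesion, rose by 0.59 in clone 2 against the empty vector clones (limma adjusted p = 0.0485), and no other passed in any comparison. Of the 7 other loop factors 3 were tested and none passed. TOP2B, the topoisomerase found at loop anchors, had -0.33 against all controls with all clones (SE 0.13) and LDB1, a looping adaptor, -0.22. CTCFL, the germline paralog of CTCF, read 4.47 to 4.95 on the 10 arrays, under the filter level.

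The 13 tested genes of the proliferation list moved beside SMC3 in part. Their mean was 0.36 above the empty vector mean in wild type cells, 0.26 in clone 2, 0.17 in clone 12 and 0.09 in clone 9, and it was -0.50 in clone 8, where SMC3 was 0.37 above. Among the empty vector clones it was 0.15 in clone 1, -0.0030 in clone 2 and -0.15 in clone 3. Of the 13, 2 passed in clone 2, where 3.74% of features did, and 2 in wild type cells, where 3.6% did. The passing genes were MCM2 (0.59, limma adjusted p = 0.0226) and MCM5 (0.49, limma adjusted p = 0.0445) in clone 2, and MCM2 (0.65, limma adjusted p = 0.0211) and MCM4 (0.57, limma adjusted p = 0.0406) in wild type cells, all subunits of the replicative helicase and all against the empty vector clones without clone 8. MCM2 also passed in clone 2 against clones 9 and 12 (0.59, limma adjusted p = 0.0402). The part of these genes in the SMC3 result was not tested, and whole-culture RNA cannot tell fewer cells in a cell cycle stage from less RNA per cell.

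**Figure D5:**
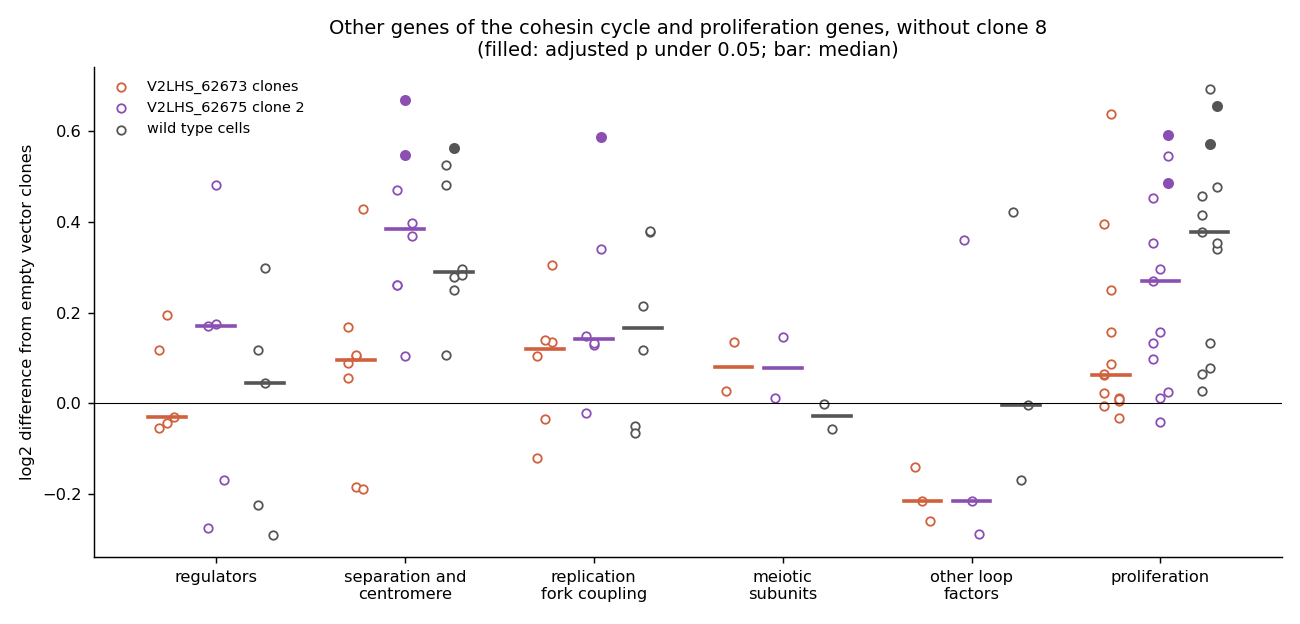
Difference in log2 level from the empty vector clones without clone 8 (vertical axis) for each tested gene of 6 lists (horizontal axis), in V2LHS_62673, clone 2 and wild type cells; points are genes, bars are medians, filled points have an adjusted p under 0.05. The filled points are PLK1, PTTG1, DSCC1, MCM2 and MCM5 for clone 2 and PLK1, MCM2 and MCM4 for wild type cells.

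Of the 4 meiotic subunits 3 have a probe of their own and 2 passed the filter. REC8, the meiotic kleisin, was 0.31 above all controls with all clones and STAG3, the meiotic STAG protein, 0.17, and neither passed. Both were highest in clone 8, at 7.26 and 7.35, the array whose 25th percentile over all probes was 6.32, against at most 5.96 elsewhere. SMC1B, the meiotic paralog of SMC1A, lay under the filter level on 9 arrays, at 4.05 to 4.42, and read 6.06 in clone 9.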

How the data were processed

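The deposited values are 1 log2 level per probe (a transcript cluster) and array, 22011 probes on 10 arrays, and how the authors corrected, normalized and summarised the probes is not stated in the labels. That the base is 2 was inferred from the values' range. RNA was extracted with Trizol, depleted of ribosomal RNA and labelled as biotinylated cDNA, per the labels' protocols. Precision is limited by how few arrays there are.

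Of the probes 14432 carry 1 symbol, 2408 several and 5171 none, and 14404 matched a RefSeq gene table (GRCh38.p14) by gene identifier. A filter removed probes whose mean fell below the 25th percentile (log2 5.95), leaving 11198 genes. The shared probes LMNB1;PCIF1 and STAG1;PCCB were added, giving 11200 features. The 3 arrays of clone 2 were averaged to 1 sample. Their titles give clone 12 and biological replicates, their descriptions and the design text replicates of clone 2, which was followed.

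limma 3.58.1 in R 4.3.3 (lmFit and eBayes, two-sided, Benjamini-Hochberg over all features, threshold 0.05) was fitted to 8 clone-level samples. Residual and prior degrees of freedom were 6 and 3.91 for knockdown against controls, and 4 and 3.26 for the fit of 4 groups, which had 3 and 7.62 without clone 8. Clone 2 and wild type cells count as 1 sample each and are assumed to vary like the other groups, so p-values reflect spread between clones. The empty vector arrays enter as separate clones, though their titles give no clone number. The script was checked on simulated data with planted changes, where each gene's spread was capped at the median spread. That check does not give the power or the rate of false calls in the real data.

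The genes and lists were chosen with earlier results of these data known. Named beside the 8 genes and LMNB1 are list genes past the threshold in a comparison, otherwise up to 2 a list with the smallest p in the comparison with all controls, and the 5 genes closest to SMC3 in pattern. CTCFL, SMC1B and the cell type markers apart from VIL1 fall outside this rule and were named after their values were seen. Alternatives were quantile normalization, median centring, other filters, array weights, a trended robust prior, averaging a gene's probes, every array as a replicate, clone as a random block, a replicate block, empty vector clones as the only controls, and leaving out each sample. Clone 8 left out together with a scaling or a second sample was added after seeing the data, as was the contrast with wild type cells.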

Additional observations from a re-analysis of the deposited data

Results flagged for a closer look

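In 20 groups of 4 values (each of the 8 genes and both shared probes, in the knockdown clones and in the controls) 2 held a sample far from the others, and chance gives about 1 in 20 such groups. NIPBL in the knockdown clones was 7.44 in clone 8, with the next value at 8.69, a gap of 0.863 of the group's range, above Dixon's critical value for 4 samples. CTCF in the knockdown clones was 8.73 in clone 8, with the next at 8.99, a gap of 0.923 of the range. Both come from the array that correlates least with the others.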

How the results depend on the processing

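SMC3 stayed above the empty vector clones under every alternative run, by 0.51 to 0.84 in V2LHS_62673, 0.70 to 0.94 in clone 2 and 0.70 to 0.80 in wild type cells. With all clones kept it passed there under array weights (limma adjusted p = 0.00297, 0.00668 and 0.0115). With clone 8 left out it also passed after median centring (0.0304, 0.0251 and 0.0306) and after quantile normalization (0.0449, 0.0275 and 0.0360). The counts of all features past the threshold under array weights are given below. Such counts were not taken for the fits with clone 8 left out and a scaling applied. Those SMC3 passes therefore stand without a share of all features. The cause of the changes below was not tested.

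Features past the threshold numbered 0 in all 5 comparisons with all clones. For knockdown against all controls they numbered 1 with quantile normalization, with the trended robust prior or with clone as a random block, 2 with every array as a replicate, 7 with array weights, 3 with empty vector clones as the only controls, 19 with clone 8 left out too, and 0 to 3 when single samples were left out. For V2LHS_62673 they numbered 342 with array weights, 6 with every array, 5 with the random block and 0 to 115 when samples were left out. For clone 2 they numbered 468 with array weights, 58 with every array, 1 with the random block and 0 to 419 when samples were left out. For wild type cells they numbered 1 with no filter, 476 with array weights and 0 to 403. For clone 2 against V2LHS_62673 they numbered 367, 15 and 4 with array weights, every array and the random block, and 0 to 241. The upper ends of the last 4 ranges are those without clone 8.

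With a replicate block on the arrays of clone 2 and the empty vector clones, 948 features passed (SMC3 0.79, limma adjusted p = 0.00445), against 1028 for the same arrays with no block. Both treat arrays of 1 clone as replicates. Same-numbered arrays correlated at 0.03, -0.15 and -0.24 in their deviations and none was closest to its own number, so the numbers were not taken to pair them.

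Some small differences changed sign. Median centring gave -0.011 for RAD21 and -0.020 for CTCF in knockdown against all controls, and -0.014 and -0.023 in V2LHS_62673. Array weights gave -0.0026 for PDS5B in wild type cells and 0.15 for STAG1;PCCB in knockdown against all controls. The latter was 0.021 with empty vector clones as the only controls and 0.27 without clone 8 too. When samples were left out, STAG1;PCCB ranged from -0.22 to 0.15. In clone 2 against the empty vector clones NIPBL ranged from -0.068 to 0.045 and PDS5B from -0.065 to 0.16, and in wild type cells PDS5B ranged from -0.033 to 0.055. In V2LHS_62673 PDS5A ranged from -0.56 to 0.0066 and RAD21 from -2.5e-05 to 0.14. In clone 2 against V2LHS_62673 PDS5B ranged from -0.33 to 0.020 and SMC3 from -0.055 to 0.33. Probes near background could not be told from those above it, since no detection values were used here.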

Other observations

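SMC1B, the meiotic partner of SMC3, read 6.06 in clone 9 and 4.05 to 4.42 on the other 9 arrays. The other 9 values lie under the filter level of 5.95 and were not shown to be above background, so no fold is given. SMC1B was singled out after its values were seen and rests on 1 array of 1 clone, so it has no test. SMC1A in the same clone read 9.13, its highest value on the 10 arrays. Of the other meiotic genes measured, REC8 and STAG3 read 6.62 and 6.82 in clone 9, within the range of the other arrays.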
